A study of Homo sapiens with 8 samples.

Results

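The collagen genes were taken as the GENCODE protein-coding genes whose symbol has the form COL, a number, A and a number, which gave 44 of 20033 protein-coding genes. For each, H3K27ac peaks were collected over the gene body plus 20 kb on either side (hg38). Of these 44 genes, 20 (45.5%) had a peak within 1 kb of the canonical transcript start in all 6 libraries, 4 had such a peak in some libraries, 16 had peaks elsewhere in the window alone and 4 had no peak in any library. Among all protein-coding genes, 59.1% had a promoter peak in all 6 libraries and 14.0% had no peak in the window.

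Collagens are secreted proteins whose chains carry glycine repeats and wind into triple helices. Fibrillar collagens form the banded fibrils of connective tissue, type IV chains form the sheet of basement membranes, and the remaining classes decorate fibrils, anchor them to epithelia or span the cell membrane. Fibroblasts and other mesenchymal cells are the main source of the fibrillar chains, whereas epithelial cells are known for basement membrane chains. H3K27ac is an acetyl mark of histone H3 found at active promoters and enhancers, and CBP (CREBBP) is an acetyltransferase that deposits it.

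The libraries came from HCEC-1CT, a line of human colonic epithelial cells kept from senescence by CDK4 and telomerase. The WT group had 3 libraries from parental cells, the CBP KO group had 3 libraries from cells in which the CREBBP gene was disrupted with CRISPR, and both descend from a single clone that carries an inducible Cas9. The methods describe several clones pooled for each target, with a matched pool of parental subclones, and elsewhere speak of monoclonal KO lines. The 3 libraries of a genotype are replicates from the same line, whose spread is all that the p-values measure. The labels give an input library for each genotype, not for each replicate. If the lists were called against it, a difference between inputs cannot be told apart from one between genotypes. Peaks of a histone mark say nothing of the edited CREBBP sequence, so the knockout itself was not checked.

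The 6 lists held 86132 to 93530 peaks in WT and 98973 to 111657 in CBP KO on chromosomes 1 to 22, X and Y, without overlap between genotypes. Each peak's fold is its enrichment over the local background as the authors' peak caller wrote it, and its percentile is its rank by fold within its own list, the share of that list's peaks at or below it. As weak peaks are added to a longer list, the percentile of an unchanged peak goes up, and the difference between CBP KO and WT had a median of 3.51 percentile points over all promoters. Genotypes were therefore compared as a shift, in which the ranks of all features tested were turned into normal scores in each library (a score of 1 is 1 SD of all features) and fitted with limma, CBP KO minus WT, with Benjamini-Hochberg adjustment over all features. Ranks hide any change that all features share, so rose and fell mean relative to the other features of a library. The paper reports a slight, significant decrease of H3K27ac in the knockout cells by immunofluorescence. By mass spectrometry it reports a moderate decrease whose significance was borderline. In its read-based test, at stricter thresholds, most H3K27ac peaks were unaffected. Read counts are not part of the lists and the depth behind a peak is unknown.

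The promoter peaks of marker genes were checked against the epithelial label. A promoter peak in all 6 libraries was found at 1 of 8 epithelial markers (CLDN7, a tight junction protein), at 0 of 8 colonocyte markers, at 0 of 5 endothelial markers and at 2 of 5 immune cell markers (CD14 and CD68). Folds were 2.67 to 5.24 at CD14 and 6.91 to 37.0 at CD68. The epithelial keratin gene KRT18 had a promoter peak in 5 libraries, all 3 of WT among them, with folds of 3.37 to 4.97. No library had one at the other 6 epithelial markers, EPCAM and CDH1 among them. The same held for all 8 colonocyte markers, among them the intestinal factors CDX2 and HNF4A. By contrast, 12 of 12 mesenchymal and fibroblast markers carried a promoter peak in all 6 libraries, among them VIM, PDGFRB and DCN. Their percentiles summed to 1022 to 1068 in the WT libraries and 1068 to 1095 in the CBP KO libraries. Percentiles run higher in the longer CBP KO lists, and the median shift of the 12 was -0.07. In the promoter fit, 2 of the 12 rose in CBP KO (ZEB1 by 0.83 and FN1 by 0.78) and 3 fell (ACTA2 by -1.53, FAP by -0.79 and PDGFRA by -0.62, the last with overlapping percentiles), beside 14.4% and 14.0% of all promoters. CD68, a macrophage protein, rose by 2.59 (adjusted p = 1.26e-05, limma). The part of these differences in the collagen values was not tested.

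The promoter stretches below are those of collagens described in the next paragraphs, shown so that promoters whose peak rose (COL4A3, COL5A1, COL4A1), fell (COL7A1, COL12A1) or was not called (COL6A2) can be read side by side. Each is up to 250 bases before the gene's start, 5′ to 3′ on the gene's strand, from RefSeq (GRCh38.p14), and was cut where an annotated untranslated exon of either gene of a pair begins. Capitals mark matches on either strand to GGGCGG (known as the GC box), CCAAT (bound by NF-Y), TATAAA (as in TATA boxes), TGANTCA (bound by AP-1 factors) and TGACGTCA (a cAMP response element).
COL4A3 promoter, chr2:227164454-227164623, plus strand: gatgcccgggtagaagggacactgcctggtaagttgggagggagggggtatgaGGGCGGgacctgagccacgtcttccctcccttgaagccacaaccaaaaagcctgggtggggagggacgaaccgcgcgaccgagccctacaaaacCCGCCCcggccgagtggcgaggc
COL5A1 promoter, chr9:134641553-134641802, plus strand: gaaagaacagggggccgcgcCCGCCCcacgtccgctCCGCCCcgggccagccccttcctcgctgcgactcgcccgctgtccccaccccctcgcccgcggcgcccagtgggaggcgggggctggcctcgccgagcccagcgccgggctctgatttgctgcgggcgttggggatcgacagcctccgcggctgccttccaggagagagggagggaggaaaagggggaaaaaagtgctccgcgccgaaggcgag
COL4A1 promoter, chr13:110307158-110307257, minus strand: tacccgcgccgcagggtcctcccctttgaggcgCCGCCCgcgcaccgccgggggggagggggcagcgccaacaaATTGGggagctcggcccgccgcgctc
COL7A1 promoter, chr3:48595330-48595579, minus strand: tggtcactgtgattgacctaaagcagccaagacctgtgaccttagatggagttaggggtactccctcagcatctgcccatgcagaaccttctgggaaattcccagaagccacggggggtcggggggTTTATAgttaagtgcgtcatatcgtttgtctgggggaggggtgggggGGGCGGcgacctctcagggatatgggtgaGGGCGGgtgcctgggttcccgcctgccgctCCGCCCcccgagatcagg
COL12A1 promoter, chr6:75206054-75206303, minus strand: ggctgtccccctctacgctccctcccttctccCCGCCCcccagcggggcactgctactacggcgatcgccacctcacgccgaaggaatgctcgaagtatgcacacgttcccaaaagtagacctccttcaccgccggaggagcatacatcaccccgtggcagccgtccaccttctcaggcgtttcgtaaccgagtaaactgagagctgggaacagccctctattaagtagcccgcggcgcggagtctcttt
COL6A2 promoter, chr21:46097862-46098111, plus strand: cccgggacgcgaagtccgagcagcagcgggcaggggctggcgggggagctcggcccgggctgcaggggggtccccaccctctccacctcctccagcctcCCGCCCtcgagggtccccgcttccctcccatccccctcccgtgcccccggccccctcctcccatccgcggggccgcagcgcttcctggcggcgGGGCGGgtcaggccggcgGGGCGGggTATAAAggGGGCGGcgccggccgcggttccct
All of the 6 stretches held a GGGCGG match, from 1 in COL4A1 and COL12A1 to 4 in COL6A2. TATAAA was matched in those of COL7A1 and COL6A2, CCAAT in that of COL4A1, and TGANTCA and TGACGTCA in none. The table held 32 of the 44 collagens, 14 of them among the 20 with a promoter peak in all 6 libraries. Over the full 250 bases, GGGCGG was present in 9 of these 14 (64.3%) and in 56.7% of 15345 protein-coding promoters, TATAAA in 3 (21.4%) against 9.23%, CCAAT in 3 (21.4%) against 34.8%, TGANTCA in 0 against 5.02% and TGACGTCA in 0 against 2.36%. In the shorter windows, GGGCGG occurred in 52.2% of promoters over 170 bases, the length printed for COL4A3, and in 43.5% over 100 bases, the length printed for COL4A1, where CCAAT occurred in 21.3%.

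Among the 20 collagens with a promoter peak in all 6 libraries, 7 rose in CBP KO, 3 fell and 10 did not pass the test. In the same fit 14.4% of 11837 promoters rose and 14.0% fell. COL4A1 and COL4A2 share their promoter peak, as do COL4A3 and COL4A4, so that the 20 genes stand for 18 distinct promoters, 5 higher, 3 lower and 10 not called. The median shift of the 20 was 0.26, beside 0.01 over all promoters, and the median percentile was 86.7 in WT and 92.2 in CBP KO, beside 87.0 and 91.0 over all promoters. All CBP KO percentiles lay above all WT percentiles at 11 of the 20 genes and below them at 2, while 46.0% of all promoters lay above and 7.26% below. With 3 libraries against 3, the two-sided exact permutation test on a single percentile cannot go below p = 0.1, the value at each of these 13 genes. In such bulk libraries, fewer cells with a marked promoter and less mark per cell cannot be told apart.

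**Figure D1:**
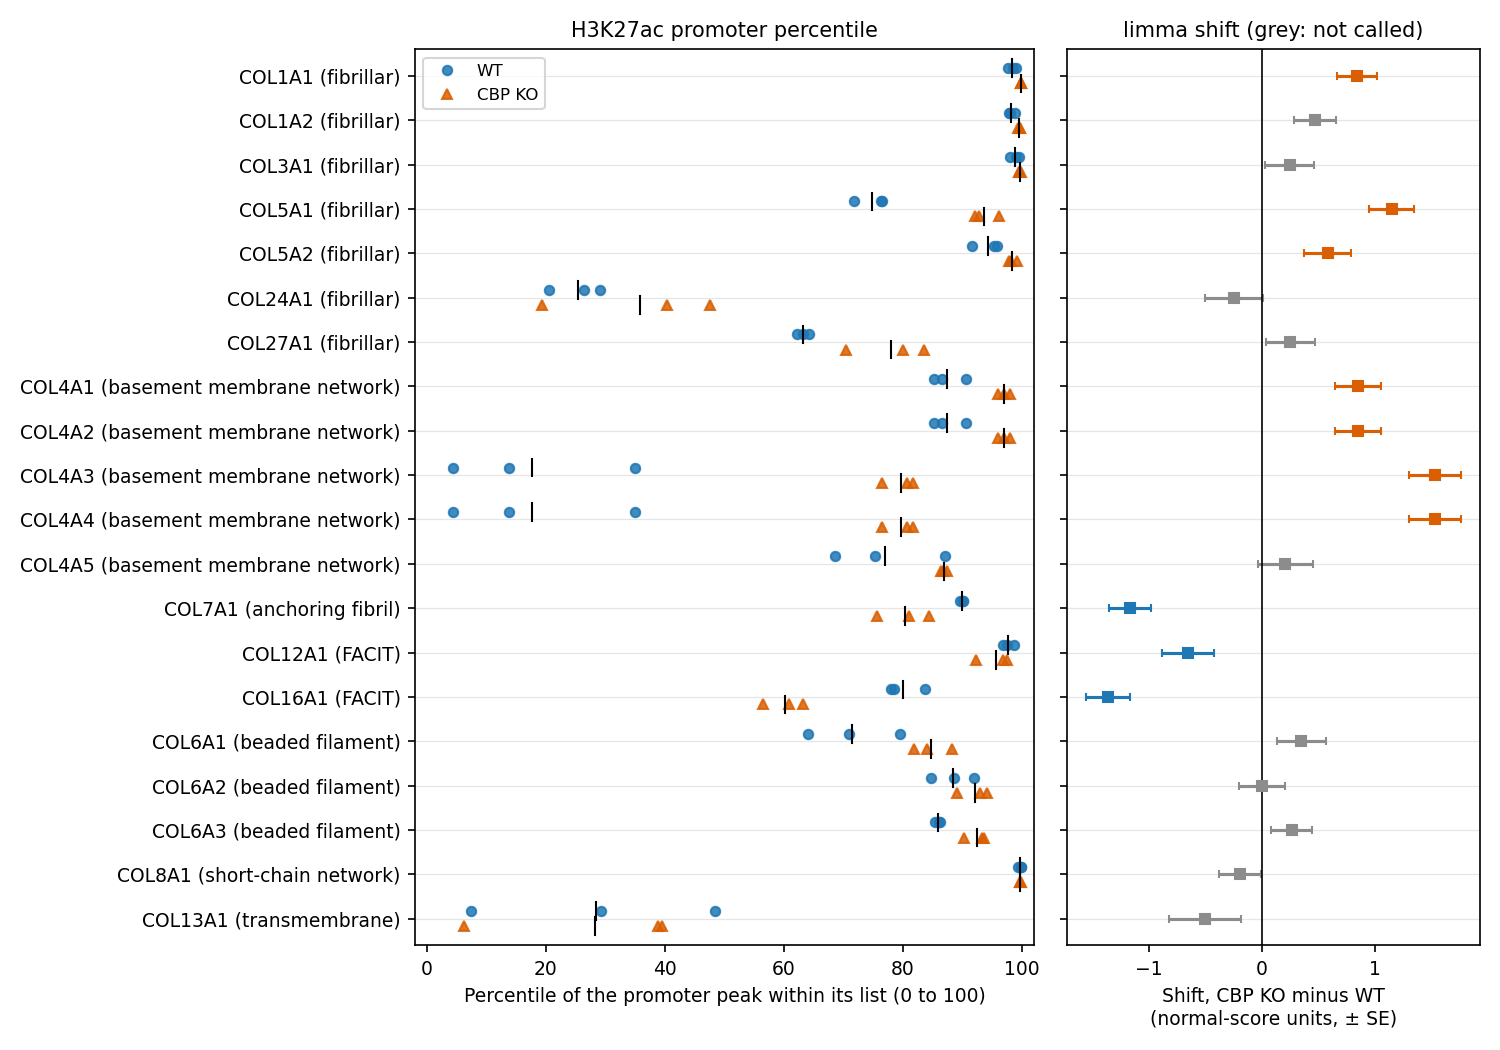
Promoter H3K27ac of the 20 collagens with a promoter peak in all 6 libraries. Left, percentile of the promoter peak in each WT (circles) and CBP KO (triangles) library, with the mean of 3 as a bar; right, the limma shift with its SE, orange where it rose, blue where it fell and grey where it was not called. COL4A3 and COL4A4 move from between 4.33 and 35.0 in WT to between 76.5 and 81.6 in CBP KO, and COL16A1 moves from 78.1 to 83.7 down to 56.5 to 63.2.

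The fibrillar class had 11 genes, of which 7 had a promoter peak in all 6 libraries. Of these, 3 were higher in CBP KO and none lower, beside 14.4% and 14.0% of all promoters. The chains of types I and III, the bulk of connective tissue fibrils, stood near the top of every list. At COL1A1 (chromosome 17, 50184101 to 50201632) the promoter peak had folds of 19.7, 22.1 and 21.7 in WT and 33.2, 37.3 and 36.3 in CBP KO. All CBP KO libraries were above all WT libraries, the percentile went from 98.4 ± 0.684 to 99.9 ± 0.0317 (SD, n = 3), and the shift was 0.84 ± 0.18 (SE, adjusted p = 0.00304, limma). This peak was 26749 to 37766 bp wide and its summit lay at -8563 to -8418 bp from the start in all 6 libraries, outside the 1 kb window. Ranked by -log10 p in place of fold, COL1A1 shifted by 0.44 (adjusted p = 0.0934, limma).

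COL1A2, the partner chain of COL1A1, had folds of 23.1, 19.2 and 20.4 in WT and 26.97, 33.2 and 31.7 in CBP KO. The groups did not overlap, yet the shift of 0.47 ± 0.19 did not pass the test (adjusted p = 0.0702, limma), and without CBP KO replicate 1 it was 0.59 (adjusted p = 0.0493). COL3A1, the type III chain, had folds of 24.3, 25.4 and 20.2 in WT and 28.8, 35.0 and 30.3 in CBP KO, with a shift of 0.25 ± 0.22 (adjusted p = 0.426, limma).

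Type V chains start and limit the growth of type I fibrils. Of the 3 type V genes, COL5A1 and COL5A2 rose and COL5A3 had no promoter peak. COL5A1 (chromosome 9, 134641803 to 134844843) had folds of 7.82, 7.85 and 7.06 in WT and 14.3, 18.9 and 15.3 in CBP KO. Its percentile was 74.8 ± 2.69 in WT and 93.7 ± 2.10 in CBP KO (SD, n = 3), and its shift 1.15 ± 0.20 (SE, adjusted p = 0.000896, limma) was the largest of the fibrillar promoters. COL5A2 (chromosome 2, 189031898 to 189225312) had folds of 17.1, 13.2 and 16.7 in WT and 21.9, 28.0 and 22.8 in CBP KO. The groups were apart, and the shift was 0.58 ± 0.21 (adjusted p = 0.0453, limma), which was lost without WT replicate 2 (0.44, adjusted p = 0.173), WT replicate 3 (0.61, 0.0733), CBP KO replicate 1 (0.65, 0.0645) or CBP KO replicate 2 (0.41, 0.200). Of the 11 tested intervals in the COL5A2 window, 1 rose, the promoter, and 2 fell, beside 18.6% and 18.7% of all intervals tested.

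The minor fibrillar chains COL24A1 and COL27A1 had lower promoter peaks. COL27A1 had folds of 5.56, 5.43 and 5.85 in WT and 7.95, 9.82 and 6.43 in CBP KO, without overlap, and a shift of 0.25 (adjusted p = 0.402, limma). COL24A1 had folds between 2.98 and 3.93 in the 6 libraries, the groups overlapped, and its shift was -0.25 (adjusted p = 0.498), against mean percentiles of 25.3 ± 4.42 in WT and 35.8 ± 14.7 in CBP KO (SD, n = 3), which point the other way. COL11A2 had a promoter peak in CBP KO replicate 2 alone, and COL2A1, COL5A3 and COL11A1 had none. COL2A1 is the main fibril chain of cartilage.

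Of the 6 basement membrane genes, 5 had a promoter peak in all 6 libraries, and 4 of these rose, beside 14.4% of all promoters. These 4 share their promoter peaks in pairs, so they are fewer distinct promoters than genes. COL4A1 and COL4A2 encode the chains of the common type IV network and start back to back on chromosome 13 (110148963 to 110307157 and 110305812 to 110513209). Their shared peak had folds of 10.5, 12.6 and 11.3 in WT and 17.6, 22.6 and 21.0 in CBP KO. Its percentile was 87.5 ± 2.82 in WT and 97.0 ± 1.01 in CBP KO (SD, n = 3), without overlap, and the shift was 0.85 ± 0.20 (SE, adjusted p = 0.00613, limma).

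COL4A3 and COL4A4, chains of the specialised network of the kidney filter, also start back to back, on chromosome 2 (227164624 to 227314792 and 227002714 to 227164453). Their shared peak was near the bottom of the WT lists, with folds of 2.49, 2.83 and 3.64, and had folds of 8.46, 8.77 and 7.82 in CBP KO. The percentile was 17.7 ± 15.7 in WT and 79.6 ± 2.74 in CBP KO (SD, n = 3), and the shift of 1.53 ± 0.23 (SE, adjusted p = 0.000353, limma) was the largest among the collagen promoters. The peak also widened, from 348 to 677 bp in WT to 1766 to 2073 bp in CBP KO. The 8 other tested promoters within 1 Mb had a median shift of -0.03, with 1 higher and 2 lower.

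COL4A5, which joins the chains of COL4A3 and COL4A4, had folds of 7.61, 11.0 and 6.48 in WT and 10.8, 11.1 and 11.8 in CBP KO. The groups overlapped in percentile and the shift was 0.21 ± 0.24 (adjusted p = 0.555, limma). Its X-linked neighbour COL4A6 had a promoter peak in 5 libraries, and in 3 of them this was the peak of COL4A5, with its summit at -1900 to -1619 bp from the COL4A6 start.

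A lower promoter peak in CBP KO was found at COL7A1 and at 2 FACIT genes. COL7A1 (chromosome 3, 48564073 to 48595329) encodes the anchoring fibrils that tie basement membrane to the tissue below. It had folds of 12.6, 12.3 and 12.6 in WT and 9.44, 8.88 and 7.59 in CBP KO. The percentile was 89.9 ± 0.266 in WT and 80.3 ± 4.42 in CBP KO (SD, n = 3), without overlap, and the shift was -1.17 ± 0.19 (SE, adjusted p = 0.000488, limma). The highest point of the peak lay at -2990 to -2901 bp from the start in WT and at 105 to 156 bp in CBP KO, so that what was ranked was not the same position in the 2 genotypes.

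FACIT collagens lie on the surface of fibrils. Of the 10 genes, 2 had a promoter peak in all 6 libraries, and both were lower in CBP KO, beside 14.0% of all promoters. COL16A1 (chromosome 1, 31652263 to 31704319) had folds of 8.27, 9.80 and 8.61 in WT and 4.42, 4.93 and 5.27 in CBP KO. Every CBP KO library was below every WT library, with a percentile of 80.1 ± 3.11 in WT and 60.2 ± 3.36 in CBP KO (SD, n = 3) and a shift of -1.37 ± 0.19 (SE, adjusted p = 0.000234, limma). COL12A1 (chromosome 6, 75084326 to 75206267) had folds of 18.3, 21.1 and 19.3 in WT and 18.9, 14.8 and 22.2 in CBP KO. These values overlapped, and the shift of -0.66 ± 0.23 (adjusted p = 0.0441, limma) was not past the threshold without CBP KO replicate 2 (-0.40, adjusted p = 0.219), WT replicate 1 (-0.75, 0.0529), WT replicate 2 (-0.49, 0.172), WT replicate 3 (-0.72, 0.0630) or CBP KO replicate 1 (-0.73, 0.0677).

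The type VI genes, whose chains form beaded filaments around cells, had 3 marked promoters of 5, none of them called. COL6A1 had folds of 5.63, 8.58 and 6.91 in WT and 11.3, 9.19 and 10.5 in CBP KO, a shift of 0.35 ± 0.21 (adjusted p = 0.238, limma). COL6A3 had folds of 10.5, 10.6 and 11.1 in WT and 15.0, 13.2 and 16.3 in CBP KO, a shift of 0.26 ± 0.18 (adjusted p = 0.299). COL6A2 overlapped between genotypes, with a shift of 0.00059 ± 0.21 (adjusted p = 0.999). At COL6A1 and COL6A3 every CBP KO percentile was above every WT percentile, as at 46.0% of all promoters.

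COL8A1, a short-chain network collagen of vessel walls, had the highest mean percentile among the WT libraries of all collagen promoters (99.6 ± 0.273, SD, n = 3), with folds of 25.7, 27.8 and 30.0 in WT and 30.6, 31.8 and 35.7 in CBP KO and a shift of -0.19 (adjusted p = 0.463, limma). Its percentiles overlapped, with a CBP KO mean of 99.7 ± 0.0937, so the mean percentile and the shift differed in sign. The transmembrane collagen COL13A1 had a weak promoter peak with folds from 2.51 to 4.37, and a shift of -0.51 (adjusted p = 0.248). COL18A1, the source of endostatin, had a promoter peak in 4 libraries and the FACIT gene COL21A1 in 4.

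The 4 genes with no peak in any library were COL6A5, a type VI chain, COL9A1 and COL22A1, both FACIT genes of cartilage and tissue junctions, and COL26A1. They spanned 139, 87.0, 326 and 196 kb. The 16 with peaks away from the promoter alone were COL2A1, COL5A3, COL11A1, COL9A2, COL9A3, COL14A1, COL19A1, COL20A1, COL6A6, COL8A2, COL10A1, COL15A1, COL17A1, COL23A1, COL25A1 and COL28A1. COL9A2 and COL19A1 had 1 peak each, in CBP KO replicate 1 and CBP KO replicate 3. With every protein-coding transcript start in place of the canonical start, 23 genes had a promoter peak in all 6 libraries.

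The collagen windows held 385, 366 and 348 peaks in the WT lists and 468, 441 and 387 in the CBP KO lists. The means were 366 ± 18.5 and 432 ± 41.2 (SD, n = 3), or 0.403% ± 0.00875 and 0.410% ± 0.0165 of the list and the shares of the list overlapped between genotypes. At a fold of at least 5 the difference between the means was 5.0 peaks. Without CBP KO replicate 1, the longest list, it was 47.7. In 7 genes all CBP KO libraries had more peaks than all WT libraries, and in COL24A1 fewer, while this was so for 13.3% and 1.49% of all genes. The 7 were COL14A1, COL18A1, COL4A1, COL4A2, COL4A4, COL5A1 and COL6A3. COL5A1 had 6, 7 and 6 peaks in WT and 14, 17 and 13 in CBP KO. COL4A1 had 16 in each WT library and 29, 29 and 23 in CBP KO. COL24A1 had 11, 10 and 10 in WT and 8, 7 and 7 in CBP KO.

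**Figure D2:**
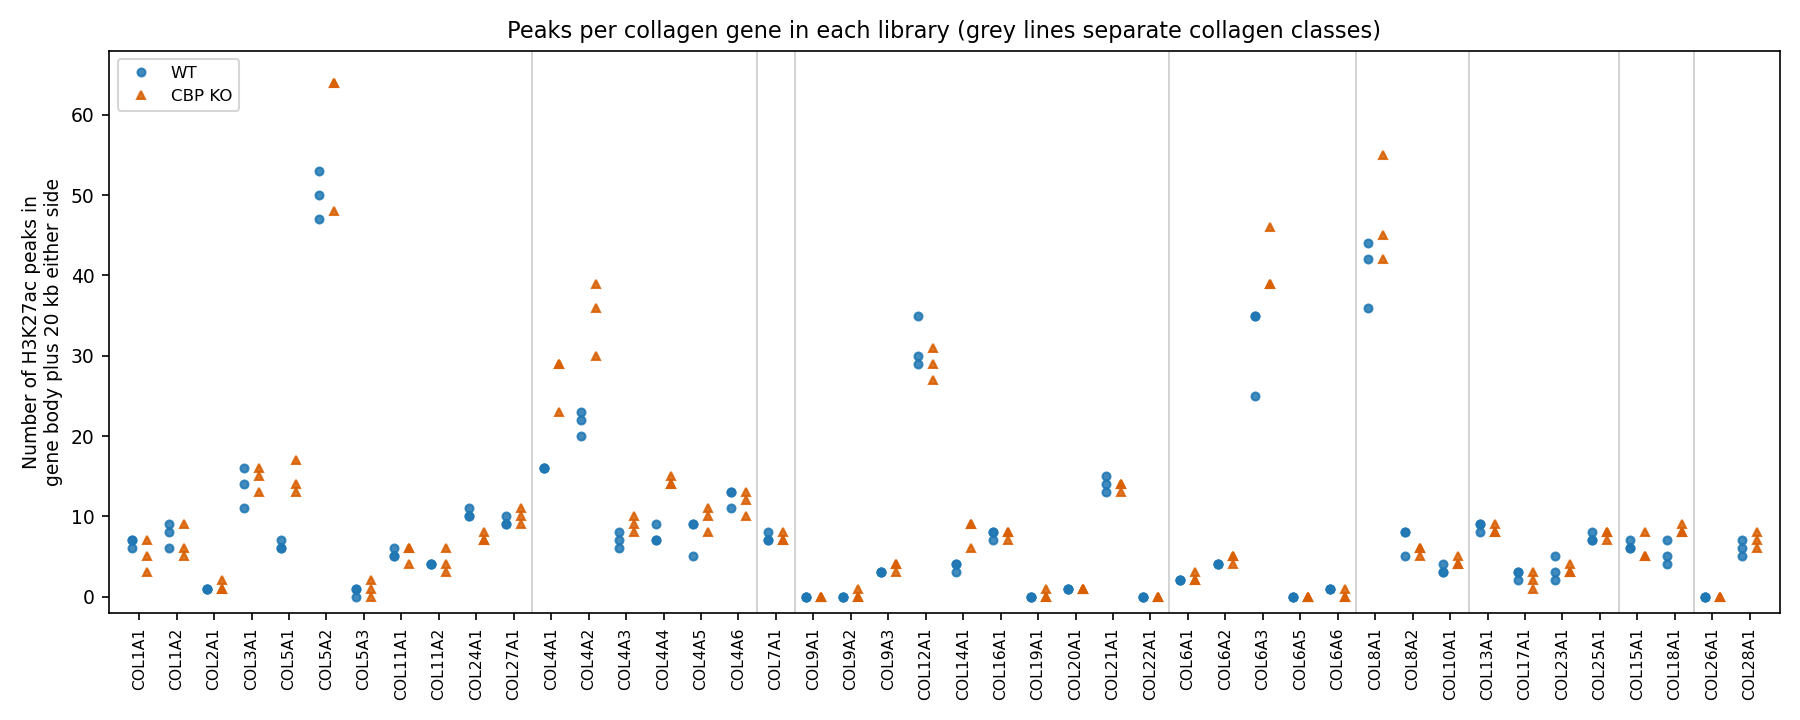
Number of H3K27ac peaks over the gene body plus 20 kb either side for each of the 44 collagens, in each WT (circles) and CBP KO (triangles) library, ordered by class. COL5A2 has the most, with 47 to 53 in WT and 48 to 64 in CBP KO, and 4 genes are at 0 throughout.

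Overlapping peaks of the 6 lists were merged into 143679 intervals, of which 477 lay in collagen windows, and 126 of these were tested because a genotype had a fold of at least 5 in all 3 libraries and all 6 had a peak. In CBP KO 23 of the 126 rose, 21 fell and 82 were not called, beside 18.6% higher and 18.7% lower of 34847 intervals. The median shift was -0.01, beside 0.02 over all intervals. By position, 7 of 16 promoter intervals rose and 2 fell, 11 of 75 intragenic intervals rose and 12 fell, and 5 of 35 flanking intervals rose and 7 fell. Of the 35 flanking intervals, 17 overlapped promoters of other genes. In this fit, in which intervals rather than promoters are ranked, the promoter intervals of COL1A2 (0.55, adjusted p = 0.0178, limma) and COL6A1 (0.67, adjusted p = 0.0394) were also called, and that of COL12A1 was not (-0.40, adjusted p = 0.0961). Where only 1 genotype passed the fold filter, the choice of intervals itself adds to the shift. With no fold filter, 23 of 203 collagen intervals rose and 21 fell, and 24.7% of all intervals were called.

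**Figure D3:**
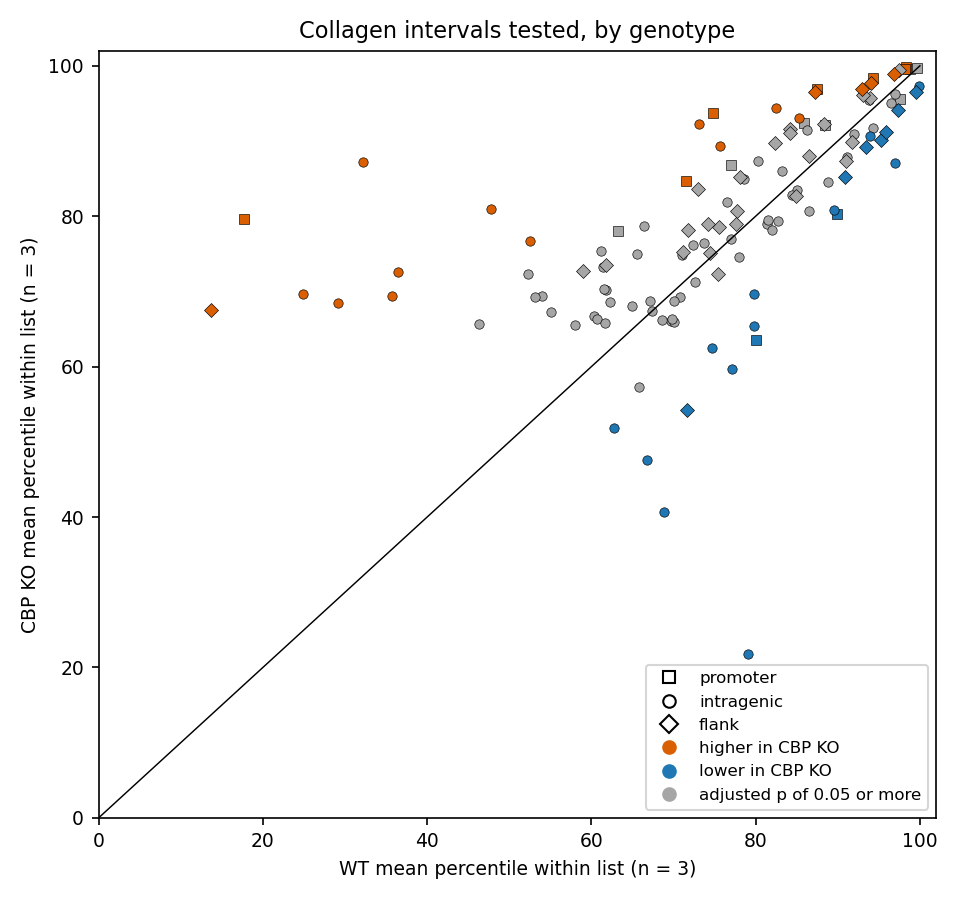
Mean percentile of the 126 tested collagen intervals in WT (x axis) and CBP KO (y axis), n = 3 each, by position (squares, promoter; circles, intragenic; diamonds, flank) and by call (orange higher, blue lower, grey not called in CBP KO). The lowest blue circle is COL24A1 intron 2, at 79.0 in WT and 21.7 in CBP KO, and the leftmost orange square is the COL4A3 and COL4A4 promoter.

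The largest intragenic differences were in COL4A4 and COL24A1. Below are the 200 bases around the median summit of the 6 libraries for each, on the plus strand of hg38. Those of a COL15A1 interval that was high in WT are added, and capitals mark the same motifs. Summits of single libraries spanned 1321 bp at COL4A4, 618 bp at COL24A1 and 206 bp at COL15A1, so some lie outside the printed bases. Distances of intervals from a start also refer to this median summit. These 3 were chosen after their values were seen.
COL4A4 intron 1, chr2:227155252-227155451, plus strand: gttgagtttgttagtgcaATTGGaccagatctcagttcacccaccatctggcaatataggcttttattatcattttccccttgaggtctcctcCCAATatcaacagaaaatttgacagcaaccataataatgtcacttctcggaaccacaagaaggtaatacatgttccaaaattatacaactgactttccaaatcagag
COL24A1 intron 2, chr1:86137780-86137979, plus strand: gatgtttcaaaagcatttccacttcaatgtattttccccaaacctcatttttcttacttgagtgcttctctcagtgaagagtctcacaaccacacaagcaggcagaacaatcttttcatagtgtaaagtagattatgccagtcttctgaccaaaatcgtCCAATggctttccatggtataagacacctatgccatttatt
COL15A1 intron 16, chr9:99030519-99030718, plus strand: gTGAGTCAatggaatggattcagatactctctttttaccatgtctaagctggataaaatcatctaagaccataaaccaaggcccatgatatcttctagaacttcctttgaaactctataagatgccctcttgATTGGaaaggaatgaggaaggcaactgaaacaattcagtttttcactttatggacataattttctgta
TGANTCA was matched in the COL15A1 stretch, and in 6.57% of the stretches of the same length at all 34847 intervals. CCAAT was matched in COL4A4, COL24A1 and COL15A1 and in 19.0% of all.

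At the COL4A4 intron 1 interval, whose summit was 8853 bp from the start, folds were 4.12, 4.16 and 2.40 in WT and 12.6, 11.1 and 10.7 in CBP KO. The percentile was 32.2 ± 25.8 in WT and 87.2 ± 3.12 in CBP KO (SD, n = 3), and the shift of 2.60 ± 0.34 (SE, adjusted p = 1.12e-05, limma) exceeded that of the promoter interval in the same fit (2.44). Both entered the fit through their CBP KO folds, and with no fold filter the intron 1 shift was 2.11 (adjusted p = 9.45e-05, limma). A neighbour over exon 2, at 16751 bp, had folds of 4.21, 4.41 and 4.10 in WT and 8.11, 8.97 and 9.23 in CBP KO (shift 1.60, adjusted p = 0.00014, limma). This neighbour also entered the fit through its CBP KO folds. In these 3 intervals every CBP KO library was above every WT library. COL4A4 had 7, 9 and 7 peaks in WT and 14, 14 and 15 in CBP KO. Its 3 tested intervals all rose, beside 18.6% of all intervals tested. All 3 also lie within the COL4A3 window.

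**Figure D4:**
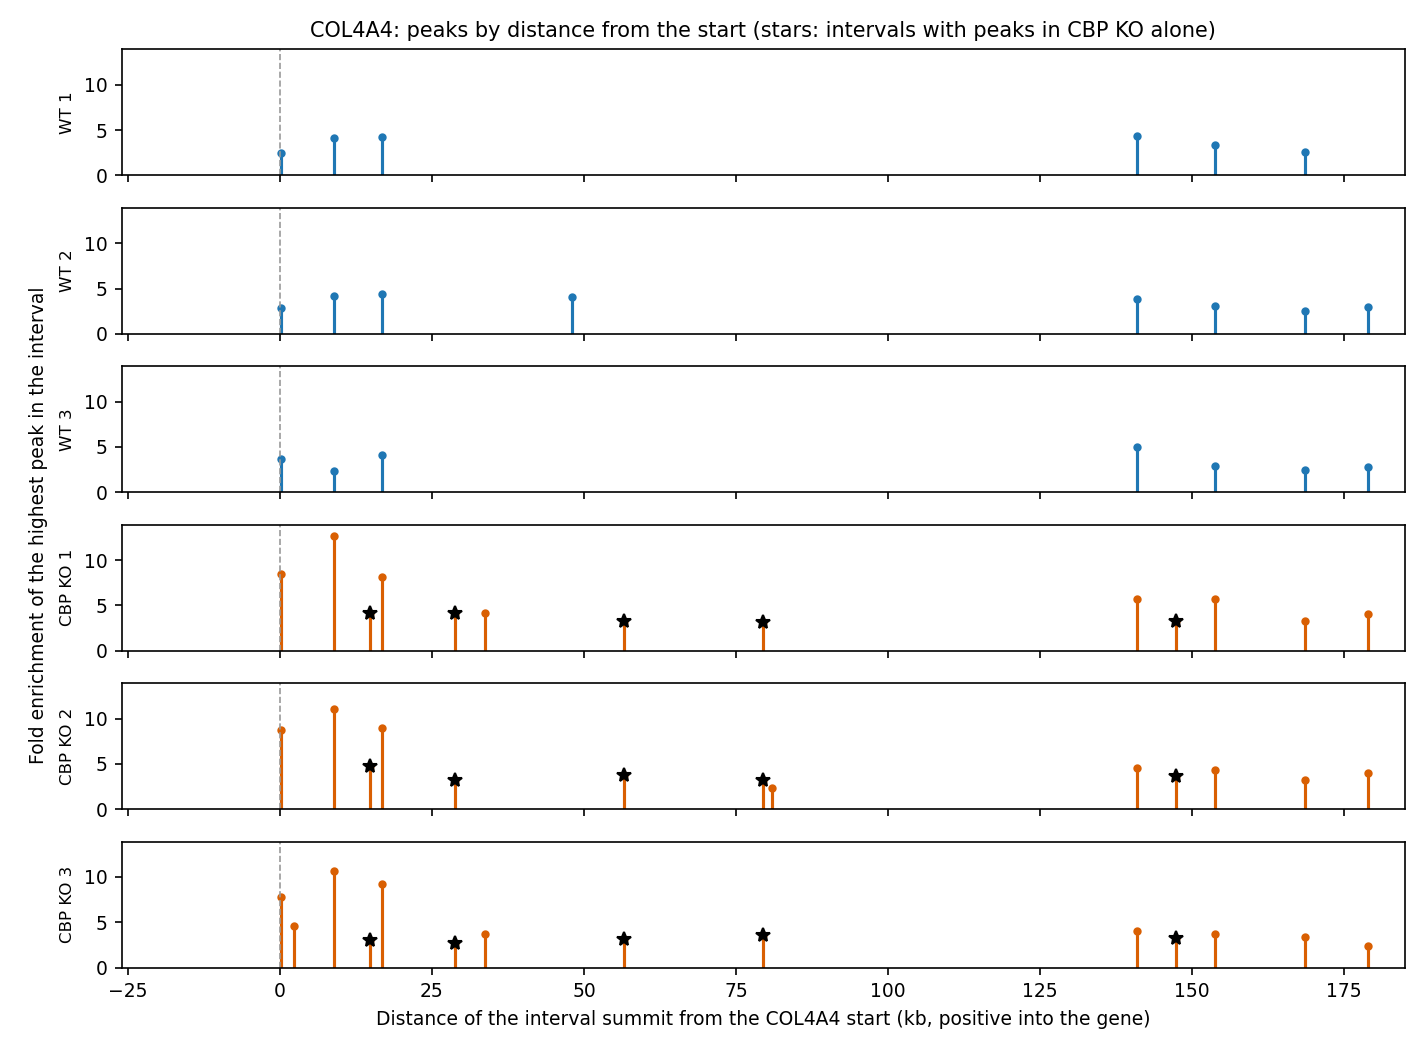
Fold of the highest peak in each interval of the COL4A4 window (y axis) against the distance of its summit from the COL4A4 start in kb (x axis, positive into the gene), a panel per library. The promoter, intron 1 and exon 2 peaks are taller in the 3 CBP KO panels, and stars mark the 5 intervals with peaks in all CBP KO libraries and no WT library.

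At COL4A1 and COL4A2 the gain was uneven. COL4A2 intron 4 at 115819 bp rose from folds of 3.07, 3.63 and 3.45 to 5.30, 5.97 and 6.31 (shift 1.25 ± 0.29, adjusted p = 0.00233, limma). This interval entered the fit through its CBP KO folds alone. COL4A2 intron 17 at 138743 bp rose from 10.6, 9.15 and 9.13 to 17.1, 18.1 and 15.3 (shift 0.84 ± 0.17, adjusted p = 0.00092). The tallest intragenic interval of COL4A2, in intron 4 at 90175 bp, had folds of 22.2, 19.2 and 15.8 in WT and 21.6, 16.9 and 19.5 in CBP KO, which overlapped (shift -0.24, adjusted p = 0.328). The tallest of COL4A1, in intron 1 at 47623 bp, had folds of 12.4 to 14.7 in WT and 10.3 to 12.9 in CBP KO (shift -0.38, adjusted p = 0.103). COL4A2 had 12 intervals tested, of which 4 rose and 1 fell, and COL4A1 had 11, of which 2 rose and 2 fell, the promoter counted in each. Over all intervals tested 18.6% rose and 18.7% fell.

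**Figure D5:**
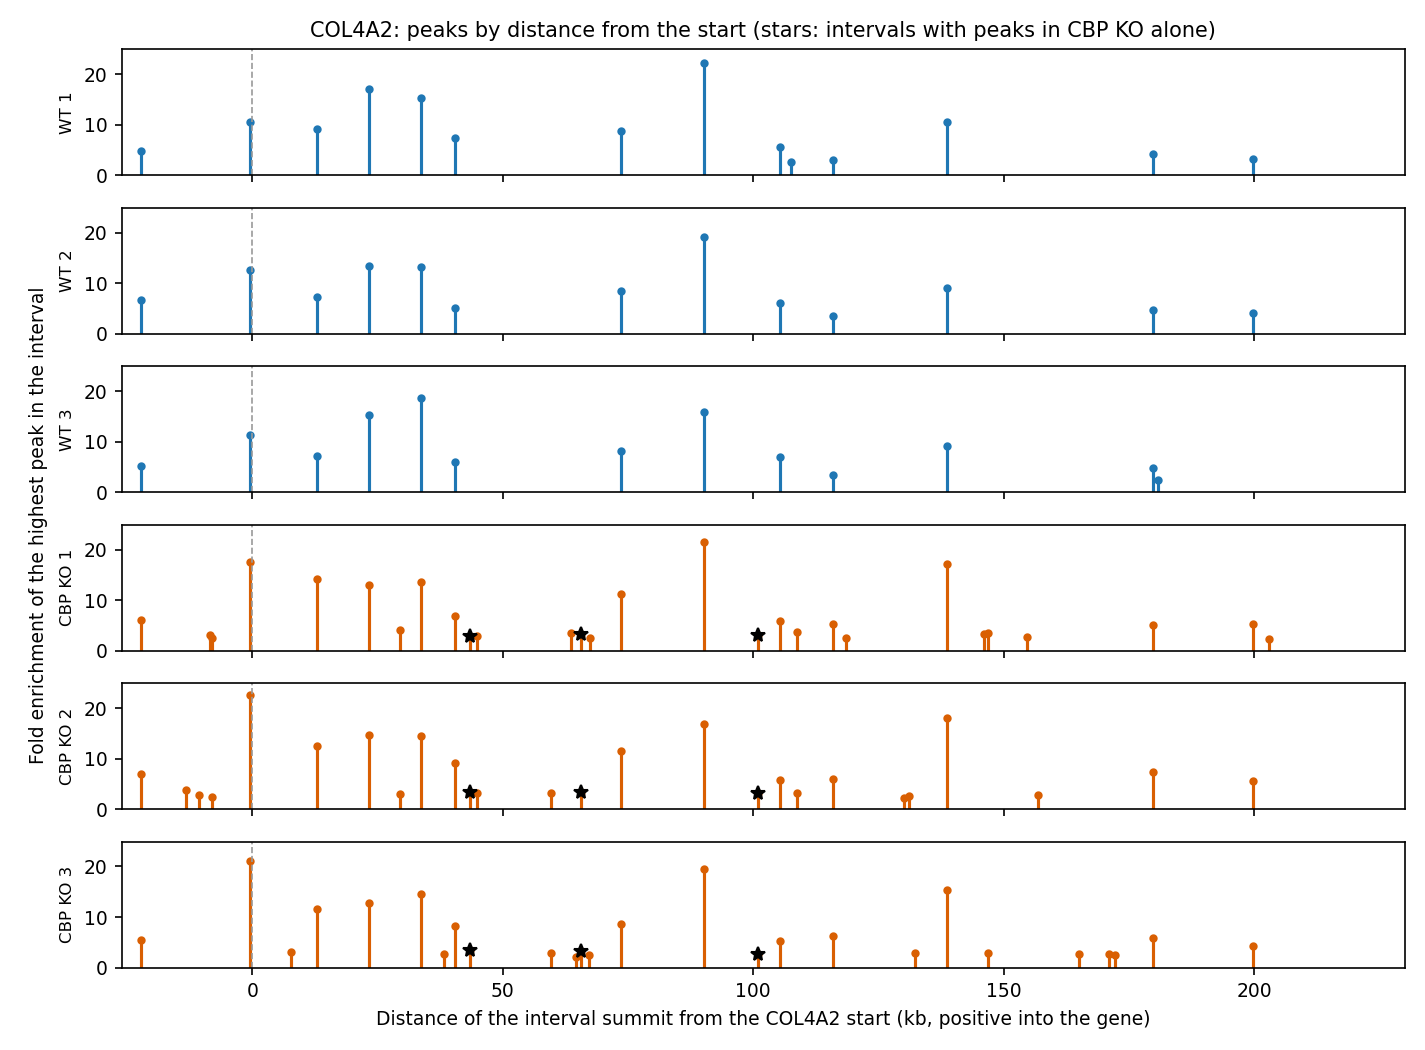
As for COL4A4, for the COL4A2 window. The peak at the start and that near 138743 bp are taller in CBP KO, the peak at 90175 bp overlaps in height between genotypes, and small peaks between them are more numerous in CBP KO.

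Of the 5 tested intervals in the COL24A1 window, 2 intragenic ones fell, beside 18.7% of all intervals tested, while the promoter was not called. The intron 2 interval, 18892 bp from the start, had folds of 7.90, 10.1 and 7.98 in WT and 2.92, 2.92 and 3.26 in CBP KO. This was the largest shift of any tested collagen interval, -2.71 ± 0.29 (SE, adjusted p = 2.28e-06, limma), and the groups were far apart. The interval entered the fit through its WT folds, and with no fold filter the shift was -2.21 (adjusted p = 1.23e-05, limma). In intron 1, at 5365 bp, folds went from 8.03, 9.86 and 8.60 to 5.47, 5.06 and 5.70 (shift -1.25, adjusted p = 0.000944). The tallest intragenic interval, in intron 19 at 163907 bp, overlapped between genotypes (shift -0.56, adjusted p = 0.0552), and it passed the test without WT replicate 2 (-0.77, adjusted p = 0.0131) or CBP KO replicate 2 (-0.70, adjusted p = 0.0362).

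The fibrillar genes COL3A1 and COL5A2 are neighbours on chromosome 2. Downstream of COL3A1, at 47530 bp from its start and in the flank of COL5A2 as well, an interval had folds of 31.0, 25.0 and 24.7 in WT and 17.8, 20.5 and 20.1 in CBP KO (shift -1.01, adjusted p = 0.000148, limma). Ranked by -log10 p this shift was -0.34 (adjusted p = 0.0698). COL11A1 intron 57 also fell, from folds of 7.33, 5.94 and 6.17 to 3.20, 4.35 and 3.61 (shift -1.55, adjusted p = 0.000526). The COL11A1 interval entered the fit through its WT folds alone.

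The multiplexins, proteoglycan collagens near basement membranes, differed from each other. COL15A1 intron 16 fell from folds of 19.3, 16.8 and 19.1 to 12.2, 11.9 and 10.3 (shift -1.10 ± 0.17, adjusted p = 4.88e-05, limma). COL18A1 had 3 intragenic intervals that rose, in intron 2 at 22408 bp (1.15, adjusted p = 0.00457), in intron 2 at 55318 bp (1.11, 0.00419) and in intron 3 at 65688 bp (0.51, 0.0229). The COL18A1 window had 4 intervals tested, and 18.6% of all intervals tested rose. Those in intron 2 entered the fit through their CBP KO folds alone. In all 3 intervals the CBP KO folds were above all WT folds. The last call was lost without WT replicate 1 (0.45, 0.0646), WT replicate 2 (0.47, 0.0578), CBP KO replicate 2 (0.48, 0.0707) or CBP KO replicate 3 (0.48, 0.0758), and the first when ranked by -log10 p (0.50, 0.210).

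Single intervals of other collagens rose or fell beyond the spread of the libraries. COL28A1 rose in intron 25 at 106479 bp (1.35, adjusted p = 0.00195, limma) and in intron 21 at 96565 bp, where folds were 7.20, 8.77 and 6.08 in WT and 14.7, 14.4 and 14.9 in CBP KO (1.17, adjusted p = 0.000243). COL6A2 intron 20 rose from folds of 2.87, 2.88 and 4.16 to 6.07, 5.67 and 6.39 (1.44, adjusted p = 0.0015). COL23A1 intron 2 fell by 1.38 (adjusted p = 0.000708), COL21A1 in its downstream flank by 1.31 (0.00152), COL12A1 intron 47 by 1.22 (0.00569) and COL16A1 intron 22 by 1.05 (0.00702), each without overlap of the libraries. The COL12A1 value was -0.87 (adjusted p = 0.0665) without WT replicate 1. The interval that rose in the flank of COL2A1 (1.72, adjusted p = 0.0006) covers the start of TMEM106C. Apart from COL28A1 intron 21, each of these intervals entered the fit only through the folds of the genotype where it was higher. Other tall intragenic intervals were not called, COL5A1 intron 1 at 0.40 (adjusted p = 0.0713), COL8A1 intron 2 at -0.49 (0.0747) and COL12A1 intron 58 at 0.05 (0.888). That of COL8A1 was called without WT replicate 1 (-0.71, 0.0157).

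Peaks present in all 3 CBP KO libraries and in no WT library occurred at 20 of the 477 intervals (4.19%), beside 2.66% of all intervals, and the reverse at 2 (0.419%), beside 1.08%. All 20 lay in collagen gene bodies, while 91 of the 477 intervals lay in flanks. They were weak, and 11 had a fold of at least 3 in all 3 libraries, none a fold of at least 5. COL4A4 held 4 of the 11, in introns 1, 12, 22 and 44, COL5A1 held 3, in introns 1 and 2, COL8A1 held 2, in intron 1 and exon 2, and COL4A1 intron 1 and COL4A2 intron 4 held 1 each. The COL4A4 intron 1 interval, 14788 bp from the start, had folds of 4.18, 4.72 and 3.08, and the COL5A1 interval at 7091 bp had folds of 3.02, 4.07 and 4.92. The 2 seen in WT alone, in the COL17A1 flank and in COL21A1, had folds of 2.71 to 4.56. The CBP KO lists were the longer ones, and with lists of the same length 15 intervals were found in CBP KO alone and 2 in WT alone. With 1 library fewer to satisfy the rule, the 22 became 35 without WT replicate 2 and 37 without CBP KO replicate 3.

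Enzymes that build collagen were largely marked. Of 19 genes for hydroxylation and folding, 17 had a promoter peak in all 6 libraries, and 5 rose and 1 fell, with a median shift of 0.15. Over all genes 59.1% had such a peak, and over all promoters tested 14.4% rose and 14.0% fell, the shares against which the counts of all 3 lists stand. COLGALT1, which adds galactose to hydroxylysine, rose by 0.72 (adjusted p = 0.010, limma), the export factor MIA3 by 0.93 (0.0336), and the hydroxylase partner P3H4 and the prolyl isomerase FKBP10, which share a peak, by 0.79 (0.00784). PPIB, another prolyl isomerase, rose by 0.56 (0.0254) and P4HA1, the main prolyl 4-hydroxylase subunit, fell by 0.71 (0.00881). Among 13 genes for processing and crosslinking, 9 were marked, and 2 rose and 2 fell. The crosslinking oxidase LOXL4 had percentiles of 68.1 ± 4.49 in WT and 90.6 ± 0.597 in CBP KO (SD, n = 3) and rose by 1.07 (0.000607), and LOX rose by 0.70 (0.0252). The propeptide proteases BMP1 and ADAMTS14 fell by 1.18 (0.000479) and 0.92 (0.00563), the latter with overlapping percentiles.

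Of 13 receptors and degrading enzymes, 9 were marked, and 2 rose and 2 fell. MMP14, a membrane collagenase, rose by 1.13 (adjusted p = 0.00279, limma) and MRC2, an uptake receptor, by 0.70 (0.0177). The receptors DDR1 and ITGA1 fell by 0.57 (0.0346) and 0.64 (0.0166), with overlapping percentiles. DDR2, the receptor for fibrillar collagens, stood at 99.9 ± 0.0454 in WT and 99.8 ± 0.154 in CBP KO (SD, n = 3) and was not called. The secreted collagenases MMP1, MMP8 and MMP13 and the integrin ITGA11 had no promoter peak in any library. PPIB, P4HA1, LOX, DDR1, ITGA1, MRC2 and DDR2 were picked out after their values were seen. Over the 3 lists 14 of 35 promoters were called, beside 28.5% of all promoters, and without CBP KO replicate 3 it was 9 of 35, beside 21.5%. P3H4 and FKBP10 are counted separately here, although they share a peak.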

How the data were processed

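H3K27ac ChIP-seq libraries of HCECs, 3 WT and 3 CBP KO, were analysed as separate samples of their genotype. The input libraries were not analysed here. Per the labels, reads were aligned with BWA to hg38, and the authors made a narrow peak list per library with MACS2. Whether the lists follow the downsampling of reads that the methods describe is not given in the sources used here. The deposited fold is a linear ratio over local background, significance is deposited as -log10 p and -log10 q values (lowest -log10 q 1.30), and the deposited score was not used. Depth per library is unknown from the lists, and precision rests on 3 libraries per genotype. The methods' read-based differential test needs reads and was not repeated.

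Collagens, their classes, gene lists and tests were chosen with earlier results of these data known. Peaks were assigned with GENCODE release 44 (gene body plus 20 kb, promoters within 1 kb of the canonical start) and merged where they overlapped or touched. All peaks lay within the hg38 chromosome lengths. Normal scores of ranks were fitted with limma 3.58.1 (lmFit, eBayes with trend, R 4.3.3), called at an adjusted p under 0.05. Exact permutation tests used SciPy 1.17.1. The merging and the fit were tested on simulated data, and the merging against bedtools 2.31.1. The text names every collagen with a promoter peak in all 6 libraries, every silent collagen, the 20 called intervals outside promoters with the largest shifts and no overlap (1 of them is not reported here), the tallest intragenic interval of the 10 highest genes (those tested), intervals seen in 1 genotype with a fold of at least 3, and 8 list genes by shift. Up to 6 promoter sequences followed the size of the shift and then the percentile, and COL16A1, whose window is an annotated untranslated exon, was passed over. Promoters absent from the RefSeq table, the called COL1A1 and COL5A2 among them, could not be printed. Alternatives changed the fold and q filters, window, ranking, model and list length, and left out each library in turn. The alternative that asks for a summit within 1 kb and those for the gene lists were added after the data were seen.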

Additional observations from a re-analysis of the deposited data

How the results depend on the processing

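The count of called collagen promoters (10) stayed between 7 and 11 under every alternative and between 8 and 10 with 1 library left out. The 44 called intervals became 25 with a fold of at least 10, which tests 49 in place of 126, and numbered 35 to 44 with 1 library left out. The list promoters called (14) became 8 when ranked by -log10 p, and 9 to 13 with 1 library left out. Collagens without a peak (4) became 7 with a gene body plus 5 kb and 7 with a -log10 q of at least 5, both of which leave fewer peaks in the windows. The difference in peaks per library (65.7) became 21.0 with a -log10 q of at least 5, 5.0 with a fold of at least 5 and 18.0 with lists of the same length, and ranged from 47.7 to 88.2 with 1 library left out. The intervals seen in 1 genotype (22) became 11 with a fold of at least 3 and 0 with a fold of at least 5, and numbered 26 to 37 with 1 library left out. Promoters with a peak in all 6 libraries (20) numbered 15 to 23, the 15 both with a fold of at least 5 and with the summit within 1 kb, where COL1A1, COL1A2, COL6A3, COL7A1 and COL12A1 drop out.

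Direction changed for 4 values that were not called, and the cause was not tested. The COL6A2 promoter shift was -0.00033 with a -log10 q of at least 5, -0.017 ranked by -log10 p and -0.0068 with the summit within 1 kb, and ranged from -0.14 to 0.16 with 1 library left out. That of COL4A5 ranged from -0.067 (without WT replicate 3) to 0.53, that of COL8A1 was 0.14 ranked by -log10 p, and that of the COL12A1 interval at 106762 bp ranged from -0.21 to 0.40. The COL12A1 promoter was -0.23 (adjusted p = 0.443, limma) ranked by -log10 p. Centring log2 fold on the median called the tallest intervals of COL5A1 (adjusted p = 0.0366) and COL24A1 (0.045), and limma without a trend lost COL18A1 at 65688 bp (0.0528). Of the promoter shifts under alternatives 287 kept call and direction, 13 lost and 1 gained the call and 8 turned, and of the interval shifts 363, 8, 5 and 3.

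Replicate numbers were shared between genotypes, but deviations of same-numbered libraries correlated at 0.00845 to 0.0281 only, so the numbers were not taken as pairs. With the replicate number as a block, 8 collagen promoters, 43 intervals and 14 list promoters were called, and the COL12A1 (adjusted p = 0.0626, limma) and COL5A2 (0.0641) promoters were not. WT replicate 1 correlated better with CBP KO replicate 2 than with its own number. Depth is unknown, so a missing peak is not shown to be a missing mark.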
